A study of Salvia dorisiana with 6 samples.

Results

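The levels of 4 transcripts of *Salvia dorisiana* were described over 6 tissues. These were clust226 and clust219, both closest by BLAST to the protein SIEVE ELEMENT OCCLUSION B, clust1559, closest to a serine carboxypeptidase-like protein, and clust3441, an uncharacterized transcript. They were chosen by measured values, as the transcripts whose RPKM in small leaves was over 50 times that in large leaves and which are not methyltransferases, and they make up 4 of the 85 transcripts in the deposited table. RPKM gives reads relative to transcript length and to all reads mapped in a library. RNA was sequenced from untreated greenhouse plants propagated by cutting, with 1 library per tissue. The tissues were trichomes, stem, roots and leaves of 3 size classes, below 3 cm (small leaves), from 3 to 10 cm (medium leaves) and above 10 cm (large leaves). The trichomes were a total fraction of trichome heads from apical buds and young leaves, so that several trichome types were pooled. They were isolated by a soak in ice-cold water, bead beating and sieving before they were frozen. In comparisons with trichomes, this handling and the tissue cannot be told apart. No genotype, plant age or number of plants was given for a library in the sources used here. The differences between tissues have no replicate check, so no test was made, and the 95% intervals given here cover counting error only.

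Sieve element occlusion proteins are the structural P-proteins of the phloem. They form filaments in the sieve elements, the living conduits that carry sugars, and in legumes and *Arabidopsis* they are known to gather at sieve plates after wounding. Serine carboxypeptidase-like proteins share the fold and the catalytic triad of serine carboxypeptidases, and some members of the family, such as the sinapoylglucose acyltransferases of *Arabidopsis*, transfer acyl groups from glucose esters in specialized metabolism instead of cutting peptides. The closest match of clust3441 is an uncharacterized partial protein of the horseshoe crab *Limulus polyphemus*, and no role is given to it here.

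The study had kept transcripts for a trichome level above 1000 RPKM and for correlation with limonene synthase and with the pathway metabolites, on these same libraries, so a high trichome level is a condition of the list and not a finding. All 85 transcripts were highest in trichomes. The table is a selection of trichome transcripts, so leaf, stem and root identity could not be checked against defining markers. The trichome label could not be checked within this selection either. All 13 transcripts with a terpene synthase domain peaked in trichomes, but so did all 85, and the selection itself favoured this. Fragments (read pairs) were recovered from the RPKM values, which gave library totals of 3314347 in trichomes to 19415968 in medium leaves. These are the smallest totals that fit, so true fragment numbers may be multiples of those given and the intervals may be too wide. In these tissue samples, fewer cells of a type and less RNA per cell cannot be told apart.

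The threshold of the rule lay in a wide gap of the list. The ratio of small leaves over large leaves was 136-fold for clust3441, 119-fold for clust1559, 100-fold for clust226 and 72.5-fold for clust219. A methyltransferase, clust2791, closest to caffeic acid 3-*O*-methyltransferase, was at 60.0-fold and is left out by the rule, and the next transcript down was clust2659, a GDSL esterase/lipase, at 16.7-fold. Over 50-fold were 5.88% of the 85 transcripts, by construction of the rule. Counting error alone reached below the threshold for 3 of the 4 transcripts, with intervals of 46.2–659 for clust3441, 46.2–437 for clust1559 and 40.4–146 for clust219, against 84.0–120 for clust226. The low denominators set these widths, since large leaves held 3 fragments of clust3441, 4 of clust1559, 11 of clust219 and 126 of clust226.

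The sieve element occlusion transcript clust226 was high in trichomes and in the smallest leaves and low elsewhere. It was at 1467 RPKM in trichomes, 625 in small leaves, 69.2 in medium leaves, 6.24 in large leaves, 9.33 in stem and 1.22 in roots. The level in small leaves was 42.6% of that in trichomes, and it ranked 17 of the 85 transcripts there by RPKM and 7 by fragments (19820). In large leaves it ranked 81. In the order of its levels each library was separated from the next by more than counting error. The smallest gap was that of stem over large leaves, at 1.50-fold (1.17–1.91).

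The second sieve element occlusion transcript, clust219, had nearly the same level in trichomes and was low in the leaves. It was at 1431 RPKM in trichomes, 54.5 in small leaves, 6.16 in medium leaves, 0.752 in large leaves, 0.794 in stem and 1.88 in roots. Its level in small leaves was 3.81% of that in trichomes and ranked 82 of 85. Stem and large leaves, with 9 and 11 fragments, did not differ beyond counting error (1.06-fold, 0.387–2.80). Roots, with 19 fragments, stood 2.37-fold above stem with an interval of 1.02–5.95 that only just clears 1.

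The serine carboxypeptidase-like transcript clust1559 had the lowest trichome level of the 85 transcripts. It was at 1004 RPKM in trichomes, 33.3 in small leaves, 7.66 in medium leaves, 0.280 in large leaves, 1.35 in stem and 0.406 in roots. In small leaves and large leaves it was also the lowest of the 85 by RPKM. The 2 lowest libraries, roots and large leaves, held 4 fragments each, and their intervals of 0.111–1.04 and 0.0762–0.716 RPKM overlap. It was the only one of the 85 transcripts with a Peptidase_S10 domain, the domain of serine carboxypeptidases.

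The uncharacterized transcript clust3441 was the most abundant of the 4 in trichomes and had the largest trichome share of the whole list. It was at 1838 RPKM in trichomes, 49.4 in small leaves, 12.2 in medium leaves, 0.365 in large leaves, 3.14 in stem and 0.353 in roots. Of its RPKM summed over the 6 libraries 96.6% came from trichomes, against 95.9% for clust1559, 95.7% for clust219 and 67.4% for clust226. These shares ranked 1, 2, 3 and 66 of 85, where the list ran from 21.0% to 96.6% with a median of 81.2%. Large leaves and roots rest on 3 and 2 fragments and cannot be ordered, with intervals of 0.0752–1.07 and 0.0427–1.27 RPKM.

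**Figure D1:**
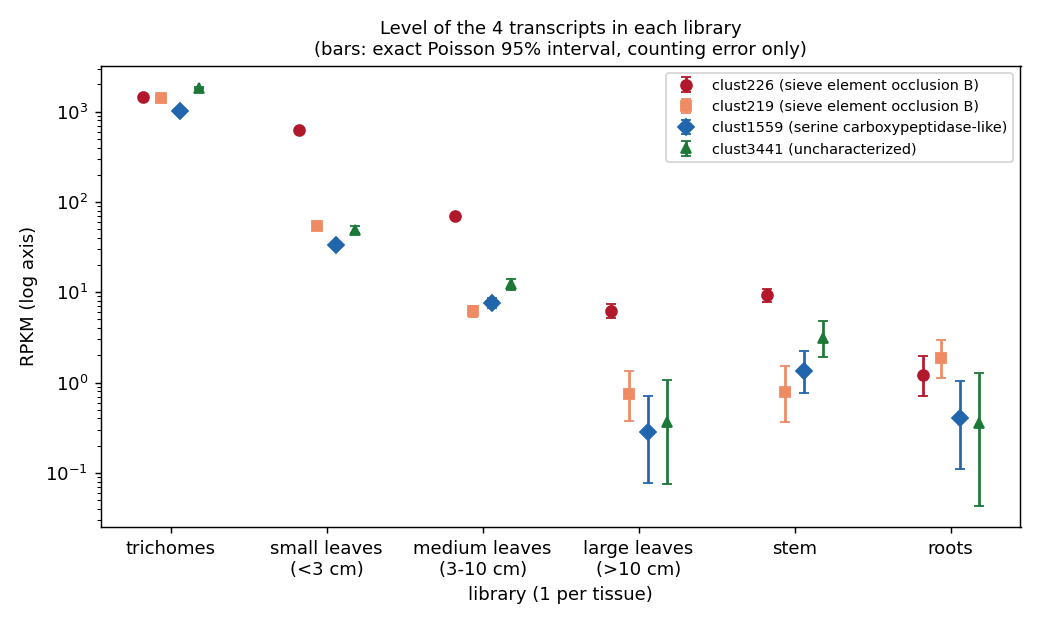
Level of each of the 4 transcripts in RPKM on a log axis, for the 6 libraries. Points are the deposited values and bars are exact Poisson 95% intervals of the recovered fragments. In small leaves clust226 stands at 625 RPKM, above the other transcripts at 33.3 to 54.5, while in trichomes all 4 lie between 1004 and 1838.

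The name of the group, young-leaf-restricted, refers only to the fall from small leaves to large leaves that the rule used. All 4 transcripts were higher in trichomes than in small leaves, and medium leaves kept part of the level. Small leaves over medium leaves was 9.03-fold for clust226, 8.85-fold for clust219, 4.34-fold for clust1559 and 4.05-fold for clust3441. Annotation text was searched for 7 words on phloem (sieve, phloem, PP2, sucrose transport, SUC2, callose and CalS), and only clust226 and clust219 themselves matched, 2 of 85. A phloem transcript annotated in other words would not be found this way. Stem and roots both contain phloem, and there clust226 was at 0.636% and 0.0832% of its trichome level and clust219 at 0.0555% and 0.132%. Low levels in stem and roots are common in this trichome-selected list. The list median ratio was 44.7-fold for trichomes over stem and 428-fold for trichomes over roots. For clust226 these ratios were 157-fold and 1201-fold, and for clust219 1803-fold and 760-fold. Whether vascular cells gave any part of the signal was not tested.

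The pair of sieve element occlusion transcripts differed in leaves and stem and not in trichomes or roots beyond counting error. In trichomes the ratio of clust226 over clust219 was 1.03 (0.995–1.06). It was 11.5 (10.8–12.1) in small leaves, 11.2 (9.69–13.1) in medium leaves, 8.30 (4.48–17.1) in large leaves and 11.8 (6.03–26.2) in stem. In roots it was 0.648 (0.317–1.32), from 17 and 19 fragments. The 4 shoot libraries other than trichomes thus gave ratios whose intervals overlap each other and lie apart from those of trichomes and roots. On the log2 scale of RPKM + 1, which understates ratios at low levels, the difference was 0.04 in trichomes, 3.50 in small leaves, 3.29 in medium leaves, 2.05 in large leaves, 2.53 in stem and -0.38 in roots. A read could match at up to 10 places in the mapping of the authors, so reads of regions that both transcripts share may have been divided between them, and the effect of this was not tested. The shortest coding lengths that gave whole fragments were 2136 nt for clust226 and 1548 nt for clust219, or 712 and 516 codons.

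**Figure D2:**
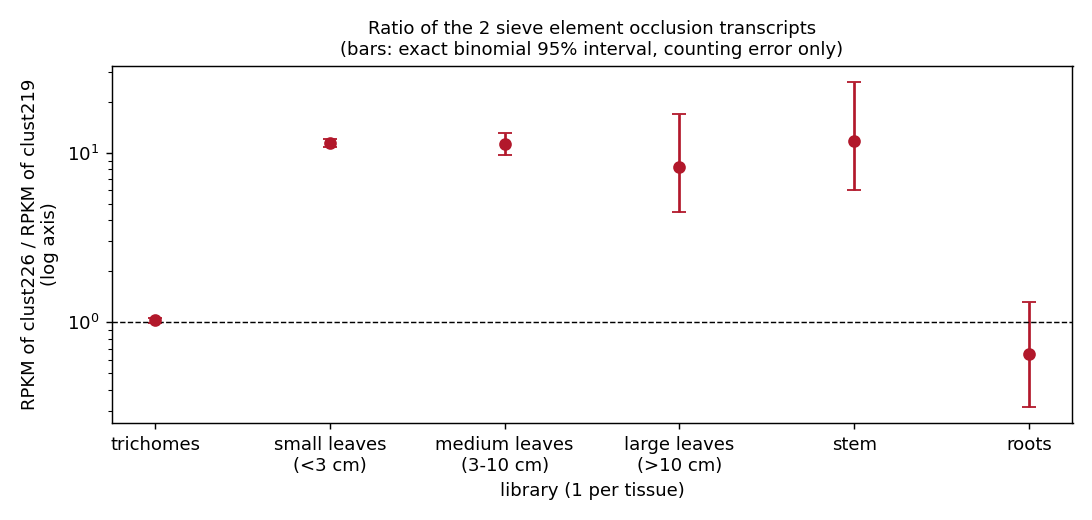
RPKM of clust226 divided by RPKM of clust219 in each library, on a log axis with a dashed line at 1. Bars are exact binomial 95% intervals. The ratio lies at 1.03 in trichomes and 0.648 in roots, and between 8.30 and 11.8 in the 3 leaf libraries and stem.

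The first step of the fall with leaf size was larger in the sieve element occlusion pair than in the other pair. From small leaves to medium leaves clust226 was 9.03-fold lower (8.68–9.39) and clust219 8.85-fold lower (7.58–10.4). Over the same step clust1559 was 4.34-fold lower (3.73–5.06) and clust3441 4.05-fold lower (3.46–4.77). The intervals of the first pair do not overlap those of the second pair. From medium leaves to large leaves the ratios were 11.1 (9.28–13.4) for clust226, 8.19 (4.47–16.7) for clust219, 27.4 (10.6–101) for clust1559 and 33.4 (11.3–163) for clust3441. At this second step the intervals of clust219 overlap those of the other pair, and so do those of clust226, with 3 to 126 fragments behind the large-leaf values. The first step made up 47.8% of the log2 fall for clust226, 50.9% for clust219, 30.7% for clust1559 and 28.5% for clust3441. These shares carry no interval and rest on the same large-leaf fragments. The methyltransferase clust2791, which the rule left out, was 7.07-fold lower (5.82–8.65) at the first step, with a share of 47.8%. A large first step was thus not particular to the sieve element occlusion pair.

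All 4 transcripts passed 2-fold at both steps on the log2 scale of RPKM + 1, where 20% of the 85 passed at the first step and 49.4% at the second. With a pseudocount of 10 RPKM 2 of the 4 still passed at the second step, clust226 and clust3441, with clust219 at 0.59 and clust1559 at 0.78. Over the whole leaf series 4 of 4 passed, against 60% of the list. Their median log2 difference was 2.47 at the first step (list median 0.56), 3.02 at the second (0.98) and 5.10 over both (1.34). The rule used the difference between the smallest and the largest leaves, so these counts and medians only describe the transcripts it took. At the first step clust226, clust219, clust1559 and clust3441 ranked 1, 2, 4 and 5 of 85, with the methyltransferase clust2791 at rank 3 in between. At the second step, by the same measure, clust226 and clust3441 ranked 1 and 2, clust1559 ranked 4 and clust219 ranked 9. Without a pseudocount the order at this step was clust3441 at rank 1, clust1559 at 2, clust226 at 3 and clust219 at 6. The GDSL esterase/lipase clust2659 stood at rank 3 of the second step and at rank 20 of the first, with 590 RPKM in small leaves, 313 in medium leaves and 35.3 in large leaves.

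**Figure D3:**
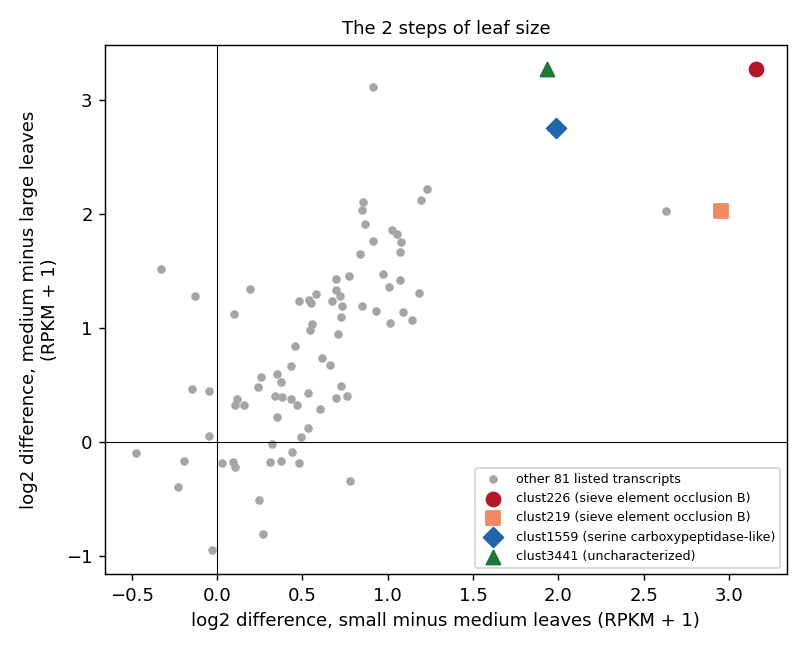
Log2 difference of RPKM + 1 between small leaves and medium leaves (horizontal) and between medium leaves and large leaves (vertical), 1 point per transcript. Grey points are the other 81 listed transcripts. The sieve element occlusion pair lies to the right at 2.96 and 3.16, and clust1559 and clust3441 lie at 1.98 and 1.93 on the same axis.

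Trichomes stood above small leaves by very different amounts in clust226 and the other 3 transcripts. The ratio was 2.35-fold (2.29–2.41) for clust226, 26.3-fold (24.7–27.9) for clust219, 30.2-fold (27.9–32.6) for clust1559 and 37.2-fold (34.2–40.4) for clust3441. By log2 of RPKM + 1, clust3441 had the highest ratio of the 85, clust1559 ranked 3, clust219 ranked 5 and clust226 ranked 79. Measured from the list median of 3.35, clust226 was at -2.12 and the other 3 at 1.34 to 1.84. When the libraries were scaled by the median of ratios over the list instead, the log2 difference of clust226 changed its sign, from 1.23 to -2.23. With RPKM as deposited, all 4 passed 2-fold, as did 95.3% of the list. Next to clust226 in this order, at rank 80, was clust2659 with 2.33-fold (2.25–2.41).

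Against the other tissues all 4 transcripts passed 2-fold in trichomes, where 97.6% of the list did over large leaves, 96.5% over stem and 98.8% over roots. These counts are near the background, and the sizes of the ratios differed more. Over large leaves the ratio was 235-fold (197–283) for clust226, 1904-fold (1064–3816) for clust219, 3587-fold (1400–13170) for clust1559 and 5040-fold (1724–24449) for clust3441. Ranked on the log2 scale of RPKM + 1, the last 3 were at places 2, 3 and 1 of 85 and clust226 at 5, which follows in part from the rule, since it took transcripts low in large leaves. Over stem clust219 had the highest value of the list on that scale, at 9.64 against a list median of 5.46. The values over stem were 8.80 for clust3441, 8.74 for clust1559 and 7.15 for clust226, at ranks 5, 6 and 15. Over roots, against a list median of 8.39, clust3441 was at 10.41 and ranked 2. The others were at 9.48 for clust1559, 9.37 for clust226 and 8.96 for clust219, at ranks 19, 22 and 32.

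Stem and large leaves were compared next, a contrast that shares only its lower library with the rule. On the log2 scale of RPKM + 1 clust3441 was 1.60 higher in stem, clust1559 0.88, clust226 0.51 and clust219 0.03, where the list median was -0.46. Past 2-fold higher in stem was 1 of the 4, clust3441, against 4.71% of the list, and past 2-fold lower were none of the 4, against 27.1% of the list. The count of higher calls moved with the setting, to 2 of the 4 with a pseudocount of 0.1 RPKM, 0 with 10 RPKM and 3 with median-of-ratios scaling. Without a pseudocount the ratios were 8.61 (2.55–45.2) for clust3441 and 4.84 (1.54–20.0) for clust1559, both above 1 by more than counting error. The 4 were chosen for low values in large leaves, so a higher stem is not independent of that choice.

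Roots and stem, which the rule did not use, divided the 4 transcripts. On the log2 scale of RPKM + 1 the difference of roots minus stem was -2.22 for clust226, -1.61 for clust3441, -0.74 for clust1559 and 0.68 for clust219. Past 2-fold lower in roots were clust226 and clust3441, 2 of 4, against 63.5% of the list, and past 2-fold higher were none, against 10.6%. Lower calls numbered 0 of 4 with a pseudocount of 10 RPKM and 0 of 4 with median-of-ratios scaling, under which clust226 was at -0.03, clust3441 at -0.22 and clust1559, with its sign turned, at 0.94. The list median was -1.78, and 20 of the 85 transcripts were higher in roots than in stem, clust219 among them. In fragments the root and stem values were 17 and 146 for clust226, 19 and 9 for clust219, 4 and 15 for clust1559, and 2 and 20 for clust3441.

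**Figure D4:**
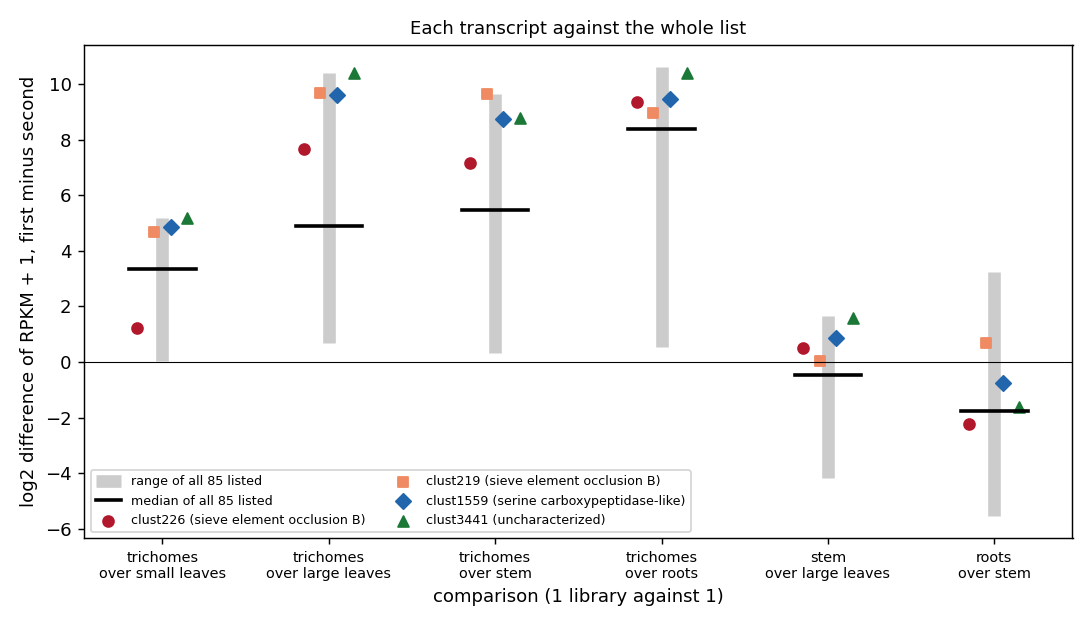
Log2 difference of RPKM + 1 for 6 comparisons of 1 library with another. Grey bars span all 85 listed transcripts, black lines are their medians, and symbols are the 4 transcripts. In trichomes over small leaves clust226 lies at 1.23, below the list median of 3.35, and the others lie between 4.69 and 5.19.

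SdLS, the limonene synthase of the pathway, was used as a trichome transcript of the same library. The reserve is that its cluster also holds SdEuS. The SdLS cluster was itself at 455 RPKM in roots, rank 11 of the 85, at 428 in stem and at 323 in large leaves. By log2 of RPKM + 1 its value in trichomes over roots, 5.62, ranked 58, against a list median of 8.39. Shares in roots are thus measured against a reference that is itself high there. In trichomes the 4 transcripts were at 4.49% to 8.22% of the SdLS cluster. In small leaves clust226 was at 34.4% of it, against 6.56% in trichomes, and in medium leaves at 6.81%. It was lower in the remaining libraries, at 1.93% in large leaves, 2.18% in stem and 0.268% in roots. The others were a smaller share of SdLS in every library than in trichomes. For clust219 the share was 6.40% in trichomes, 3.00% in small leaves, 0.606% in medium leaves, 0.233% in large leaves, 0.185% in stem and 0.414% in roots. For clust1559 it went from 4.49% in trichomes to 1.83%, 0.754% and 0.0866% from small to large leaves. For clust3441 it went from 8.22% to 2.72%, 1.20% and 0.113% over the same libraries. That all 4 shares were lower in large leaves than in small leaves follows from the rule. Between these 2 libraries the SdLS cluster was only 5.62-fold lower, against over 50-fold for the 4 transcripts.

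**Figure D5:**
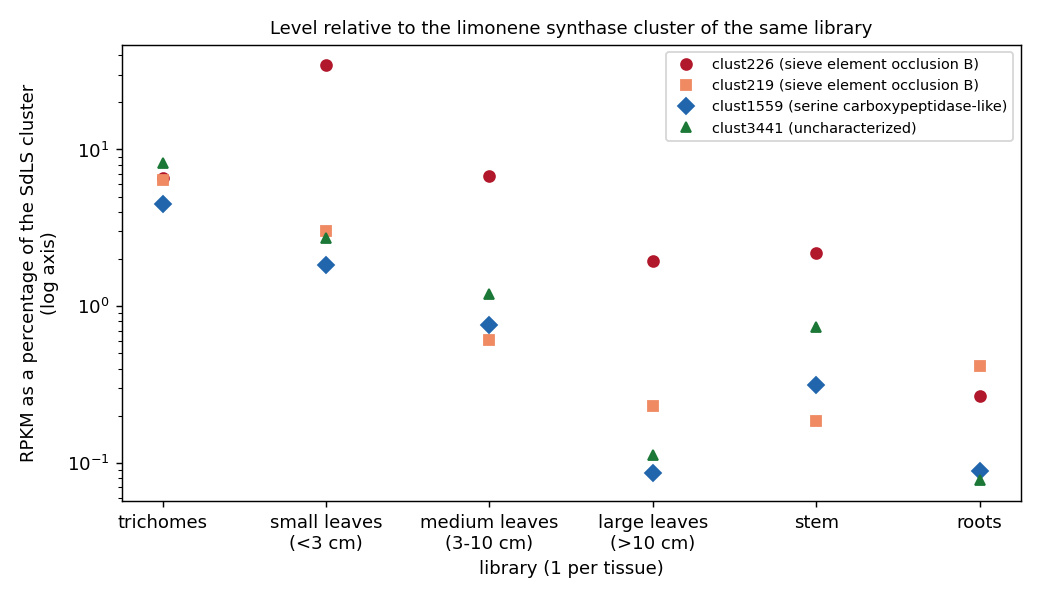
RPKM of each transcript as a percentage of the SdLS cluster in the same library, on a log axis. In small leaves clust226 stands at 34.4% and the other 3 transcripts between 1.83% and 3.00%, while in trichomes all 4 lie between 4.49% and 8.22%.

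By profile, clust219, clust1559 and clust3441 were close to each other and clust226 was not among their nearest. Likeness was measured as Pearson's r of log2(RPKM + 1) over the 6 libraries, given as a description because the libraries share the trichomes peak on which the list was selected. The nearest transcript to clust1559 was clust3441, and the reverse, with r = 0.997. The next for clust1559 were the SdLS cluster (0.992) and clust219 (0.989), and for clust3441 the methyltransferase clust2791 (0.993) and the SdLS cluster (0.985). Pearson's r does not weigh the size of the changes. By root mean square log2 difference of the profiles relative to trichomes, the SdLS cluster was 2.96 from clust1559 and 3.48 from clust3441. On that measure clust1559 and clust3441 were 0.573 apart, and each kept 2 of its 3 nearest. Nearest to clust219 were clust1568, a P450 closest to ferruginol synthase, at 0.992, clust1559 at 0.989 and the SdLS cluster at 0.988, and 1 of these 3 was kept when likeness was the root mean square difference of the profiles relative to trichomes. Nearest to clust226 were clust2659 at 0.967, clust1523, a P450 of the CYP71 type, at 0.964, and clust2665, closest to an RD22 type BURP protein, at 0.960. Between clust219 and clust3441 r was 0.977, which made clust3441 number 6 of 84 in likeness to clust219. Between clust226 and clust219 r was 0.905, so that clust219 was only number 32 of 84 in likeness to clust226.

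Levels of the nearest transcripts of clust226 show where it differed from them. The P450 clust1523 was at 3193 RPKM in trichomes, 583 in small leaves, 248 in medium leaves and 52.2 in large leaves. The transcript clust2665 was at 1643, 196, 107 and 24.1 RPKM in the same libraries. From small leaves on, both kept a larger part of their level in the bigger leaves than clust226 did, which was at 69.2 RPKM in medium leaves and 6.24 in large leaves. For large leaves this difference follows from the rule, which took clust226 for its high ratio of small leaves over large leaves.

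Of the 4 transcripts 3 carry no PFAM domain in the table, where 6 of 85 have none. For clust226 and clust219 the sieve element occlusion name thus rests on the closest BLAST match alone. The other 3 without a domain were clust4655, closest to an ESR2-like ethylene-responsive transcription factor, clust5902, closest to a partial P450, and clust5857, closest to the reductoisomerase of the methylerythritol phosphate pathway. In small leaves over large leaves 2 of these other 3 passed 2-fold, where 60% of the list did, and the exception was clust5857, at 150 RPKM in small leaves and 297 in large leaves. The ratio was 4.99-fold for clust4655, at 64.2 and 12.9 RPKM, and 7.22-fold for clust5902, at 126 and 17.5 RPKM. Both are well below the ratios of the 3 transcripts that the rule took.

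Other hydrolases and acyltransferases of the list were compared with clust1559 over the leaf series, where the rule took clust1559 for its high ratio, so that lower ratios in the others follow from the rule. The epoxide hydrolase-like clust3307, which also carries the Abhydrolase_6 domain of clust1559, was at 524 RPKM in small leaves, 373 in medium leaves, 362 in large leaves and 487 in roots. Both GDSL esterases of the list, enzymes of lipid and cuticle metabolism among others, were also lower in large leaves than in small leaves. The one closest to the threshold, clust2659, was 16.7-fold lower and ranked 6 of 85, with 590, 313 and 35.3 RPKM from small to large leaves, while clust2690 was at 480, 604 and 210 RPKM. Of the 4 hydrolases 3 passed 2-fold over the whole leaf series, clust1559 by construction, where 60% of the list did. The 3 acyltransferases with a Transferase domain, a class that uses CoA esters, had ratios of small leaves over large leaves of 3.83-fold for clust1946, 1.49-fold for clust1854 and 1.40-fold for clust5317. Of these 1 of 3 passed 2-fold, with a median log2 difference of 0.57 where the list had 1.34.

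The genes of the methylperillate pathway were lower in larger leaves by smaller factors than the 4 transcripts. In small leaves over large leaves the ratio was 5.62-fold for the SdLS cluster, 4.72-fold for the limonene hydroxylase SdL7H, 5.86-fold for the perillyl alcohol dehydrogenase SdPOHDH and 7.81-fold for the methyltransferase SdPAOMT. They ranked 20, 24, 18 and 10 of the list. The difference from the 4 transcripts follows from the rule, which took the highest ratios.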

How the data were processed

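The authors deposited RPKM values of 85 selected transcripts in 6 libraries of 1 tissue each. CLC Genomics Workbench had placed their read pairs on trichome PacBio open reading frames of at least 600 nt, merged into clusters by similarity, so 1 value can cover close sequences. Strand was ignored in the mapping. Demultiplexing used CASAVA 1.8.1, per the submitters' processing notes. The authors' 2 correlation columns were not used, and 0 RPKM columns belonged to other samples.

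Samples were grouped by their labels. RPKM was used as deposited, without a filter. Log2 differences used a pseudocount of 1 RPKM, and ratios with intervals used none. A value past 2-fold had a log2 difference over 1. Fragments were recovered by searching library totals and coding lengths (multiples of 3 nt, 600 to 3000) that gave whole numbers, within 0.001 fragments, in 510 of 510 values. The upper length limit was set after wider limits had left some transcripts without a solution. Tested on simulated data, 3 tables of 85 transcripts, the search found 17 of 18 totals and every fragment of 95.7% of the transcripts. Intervals are exact Poisson for a level and exact binomial (Clopper-Pearson) for a ratio, at 95%.

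Named transcripts were the 4 members, the 3 nearest each by profile, those around the 50-fold threshold, the pathway genes, and annotation lists written by hand. Members and lists were chosen with earlier results of these data known. Alternatives were pseudocounts of 0.1 and 10 RPKM, median-of-ratios scaling, a minimum of 1 RPKM and another measure of likeness. Scripts ran in Python 3.11.15 with matplotlib 3.10.9, pandas 2.3.3, scipy 1.17.1 and numpy 2.4.6.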

Additional observations from a re-analysis of the deposited data

How the results depend on the processing

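Depth limits the low values, and clust219, clust1559 and clust3441 rest on 20 fragments or fewer each in large leaves, stem and roots. No paired analysis was possible because each tissue has 1 library, and for the same reason no library of a group could be left out. In the scaling by median of ratios the 85 listed transcripts are themselves the reference, so it removes the list's own trichome excess: the list median of trichomes over small leaves moved by -3.48 and that of small leaves over large leaves by -1.46. Under it clust226 was at -2.23 in trichomes over small leaves, the opposite sign to the deposited scaling. Transcripts past 2-fold higher under it numbered 19 in small leaves over large leaves, 5 over medium leaves, 11 in medium leaves over large leaves, and for trichomes 8 over small leaves, 19 over large leaves, 23 over stem and 33 over roots. In stem over large leaves they numbered 9, with 3 of the 4 transcripts described, and past 2-fold lower in roots than stem were 17, with 0 of the 4. With a pseudocount of 10 RPKM the listed transcripts past 2-fold were 10 in small leaves over medium leaves and 1 in stem over large leaves. Of the 4, 2 then passed in medium leaves over large leaves, 0 in stem over large leaves and 0 in roots below stem. The log2 difference of clust226 over clust219 was then 3.30 in small leaves, 2.29 in medium leaves, 0.59 in large leaves and 0.84 in stem, since a high pseudocount shrinks low values. With a pseudocount of 0.1 RPKM 2 of the 4 passed in stem over large leaves. With a minimum of 1 RPKM in both libraries only clust226 was kept in large leaves, so 1 passed in each of small leaves, medium leaves and trichomes over large leaves and 0 in stem over it. The minimum left 2 passing in trichomes over roots, 1 in roots below stem, and 2 listed transcripts in stem over large leaves. Of the 3 nearest transcripts of clust219, 1 was shared when likeness was the root mean square difference. Of the 36 log2 differences of the 4 transcripts, 31 moved by less than counting error with a pseudocount of 0.1 RPKM, 8 with 10 RPKM and 10 with median-of-ratios scaling, under which 25 moved by more and the value of clust226 given above reversed. The difference of clust1559 between roots and stem also turned its sign under that scaling, from -0.74 to 0.94, by less than counting error.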
